A study of Bos taurus with 24 samples.

Results

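DAZL, DDX4 and YBX2 encode germline RNA-binding proteins that act on the mRNA stored in oocytes. They were chosen by gene symbol, together with CPEB1, and 3 of these 4 names had a row among the 11306 genes of the deposited table. CPEB1, and MSY2 as the older name of YBX2, had no row and are not analysed here. All 3 genes were over 0.1 FPKM in at least 1 library and belonged to the 9526 genes tested. RNA-seq had been performed on 24 libraries of bovine oocytes in 4 groups of 6. GV oocytes (germinal vesicle, the immature stage) were taken from follicles in May (spring) or July (summer), and MII oocytes (metaphase II) had been matured in vitro for 24 h after collection in the same months. The donors were non-lactating, non-pregnant crossbred Angus-based beef cows aged 3 to 6 years and were kept under the same management in both seasons. The study used 10 cows with 1 pool per animal, so any pair of groups of 6 shares at least 2 cows, and the tests below treat the libraries as independent. Season here cannot be told apart from anything else that differed between May and July. The study describes each library as a pool of 4 denuded oocytes, whereas the sample labels speak of individual cells.

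A fully grown oocyte stops transcribing its genome and relies on mRNA that it stored during growth. CPEB1 binds a short element near the end of stored messages and first represses them and then, once phosphorylated, recruits the polyadenylation machinery during maturation. DAZL binds many of the same messages and promotes their translation. YBX2, known as MSY2 in the mouse, is a Y-box protein that packs maternal mRNA into stable, silent particles, and DDX4, the vertebrate VASA, is a DEAD-box RNA helicase of germ granules and the piRNA pathway. Only the RNA of these genes was measured, not the proteins or their activity. In pooled oocytes, less RNA per cell and fewer cells cannot be told apart.

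On the bovine assembly UMD3.1.1, DAZL lay on chromosome 1 at 155383446 to 155406443, DDX4 on chromosome 20 at 23379437 to 23444463 and YBX2 on chromosome 19 at 27622773 to 27628769, all on the minus strand. The files give 1 start and 1 stop per gene, so exons and UTRs were not separated. The spans were 22.997 kb for DAZL, 65.026 kb for DDX4 and 5.996 kb for YBX2. The deposited values, named FPKM (fragments per kilobase, scaled to the mapped fragments of the library), behaved as whole fragments divided by this genomic span rather than by exon length. A level in FPKM can therefore be compared between libraries for 1 gene, but the order of the 3 genes in FPKM is not an order of mRNA abundance. All 72 values of the 3 genes were whole multiples of the value of 1 fragment, with a largest distance to a whole number of 0.01. The listed genes held between 324654 and 28207689 fragments per library. The lowest total belonged to spring GV replicate 6 and the highest to summer GV replicate 5. Spring GV replicate 6, spring MII replicate 6 and summer GV replicate 2 had under 70% of reads mapped in the alignment summary of the study.

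The oocyte markers GDF9, BMP15, ZP2, ZP3, ZP4, NLRP5, OOEP, FIGLA, NOBOX, H1FOO, KHDC3L and TLE6 were represented by 8 listed genes, whose summed FPKM ranged from 456.1 to 930.2 in spring GV, 757.5 to 1646 in summer GV, 1002 to 1327 in spring MII and 864.7 to 1103 in summer MII oocytes. The 19 listed cumulus cell markers summed to a median of 58.7 FPKM in spring GV, 48.0 in summer GV, 51.1 in spring MII and 58.1 in summer MII oocytes, with a lowest sum of 27.4. All 3 libraries with low mapping were among the 4 highest sums. Replicate 6 of spring GV stood at 590.2 FPKM, replicate 3 of that group at 181.1, spring MII replicate 6 at 163.0 and the summer GV library numbered 2 at 125.5. Of these 19 genes, 7 were above the floor of 0.01 in every library, namely HAS2, PTGS2, STAR, VCAN, KRT8, KRT18 and SERPINE2, and KRT18 reached 392.4, KRT8 146.0 and STAR 64.3 FPKM. Others were at the floor in many libraries, FSHR in 21, AREG in 17, AMH in 15, TNFAIP6 in 14 and CYP19A1 in 11. Of these, AMH reached 13.4 FPKM in spring GV oocytes, while FSHR, AREG, TNFAIP6 and CYP19A1 did not exceed 0.322 FPKM. VIM, INHA and CYP11A1 reached 75.7, 37.2 and 11.974 FPKM, also in spring GV oocytes. The spring GV medians were 0.127 FPKM for AMH, 0.215 for VIM, 0.405 for INHA and 1.44 for CYP11A1. The part of cumulus RNA in the values below was not tested.

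DAZL ranged over the 24 libraries from 0.143 to 9.95 FPKM, with a median of 1.12, resting on 24 to 697 fragments per library. In spring GV oocytes the lowest, median and highest libraries had 0.166, 0.577 and 1.79 FPKM, and in spring MII oocytes 0.366, 1.56 and 9.95 FPKM. In summer the corresponding values were 0.143, 0.534 and 3.75 FPKM in GV and 0.711, 1.56 and 2.87 FPKM in MII oocytes. The MII medians lay above the GV medians in both seasons, while all groups overlapped. The highest DAZL library of all was spring MII replicate 6, and the next value in its group was 2.63 FPKM.

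DDX4 rested on 2 to 1358 fragments, with a median of 82, and ranged from 0.0299 to 0.448 FPKM, with a median of 0.166. In spring the lowest, median and highest values were 0.120, 0.177 and 0.256 FPKM in GV and 0.0299, 0.138 and 0.185 FPKM in MII oocytes. In summer they were 0.155, 0.242 and 0.448 FPKM in GV and 0.104, 0.129 and 0.215 FPKM in MII oocytes. DDX4 varied least in summer MII oocytes, where the coefficient of variation was 27.6%, and most in spring MII oocytes, where it was 52.1%. The lowest value rested on 2 fragments in spring MII replicate 6, and spring GV replicate 6 held 9 fragments. The exact 95% Poisson interval of those 2 fragments ran from 0.0124 to 0.0817 FPKM, which covers counting error only.

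YBX2 ranged from 1.83 to 94.8 FPKM, with a median of 7.55, on 35 to 2316 fragments. In spring GV oocytes it was even across libraries, with a lowest, median and highest value of 6.29, 8.09 and 9.96 FPKM and a coefficient of variation of 17.7% (23.2% as CPM of the recovered fragments). The same values were 1.89, 2.87 and 11.5 FPKM in spring MII, 4.87, 12.4 and 94.8 FPKM in summer GV and 1.83, 3.38 and 22.1 FPKM in summer MII oocytes. Within spring MII oocytes the libraries stood in separate ranges, 4 of them between 1.89 and 3.09 FPKM and replicates 6 and 3 at 10.9 and 11.5 FPKM. Summer MII oocytes held replicates 4 and 6 at 15.5 and 22.1 FPKM, above the other 4 libraries, which did not exceed 4.37 FPKM. The nearest listed gene, SLC2A4, ends 566 bp from YBX2 on the opposite strand and was at the floor in 17 libraries, with a highest value of 0.273 FPKM.

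**Figure D1:**
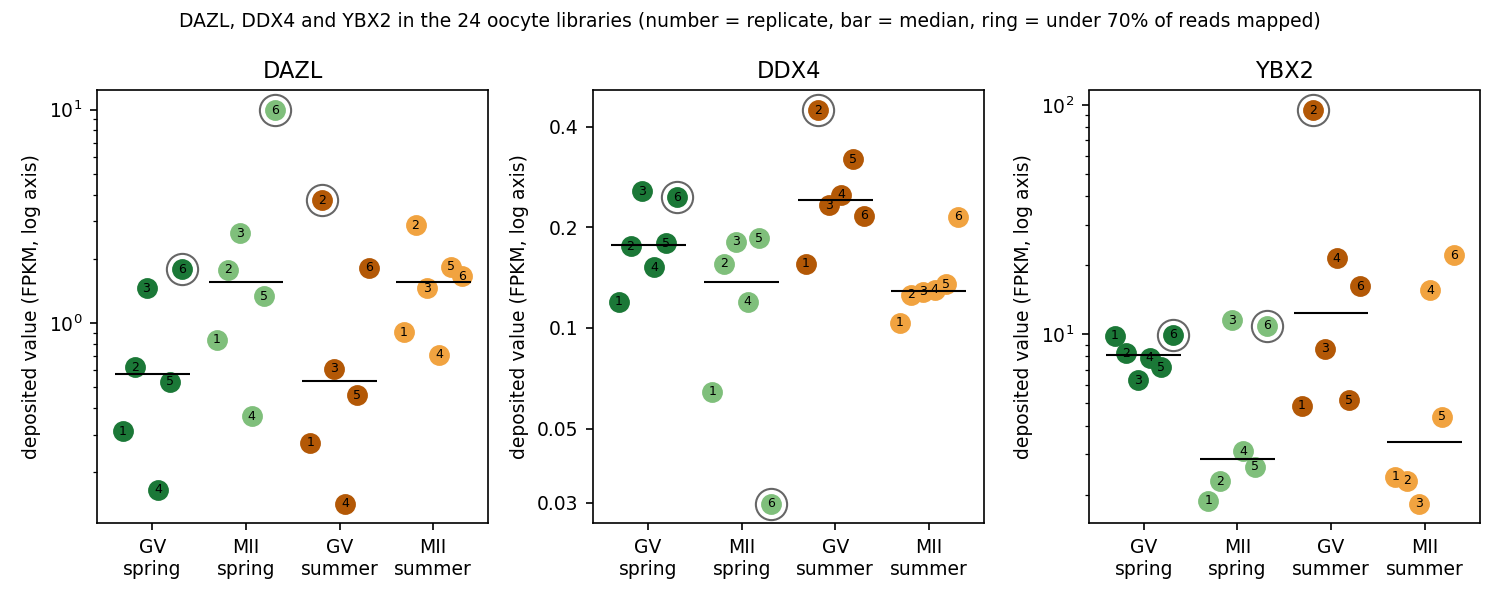
Deposited values (FPKM, log axis) of DAZL, DDX4 and YBX2 in each of the 24 libraries by group, where numbers are replicates, bars are group medians and rings mark the 3 libraries with under 70% of reads mapped. YBX2 in spring MII oocytes stands at 1.89 to 3.09 FPKM in 4 libraries and at 10.9 and 11.5 FPKM in the other two.

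**Figure D2:**
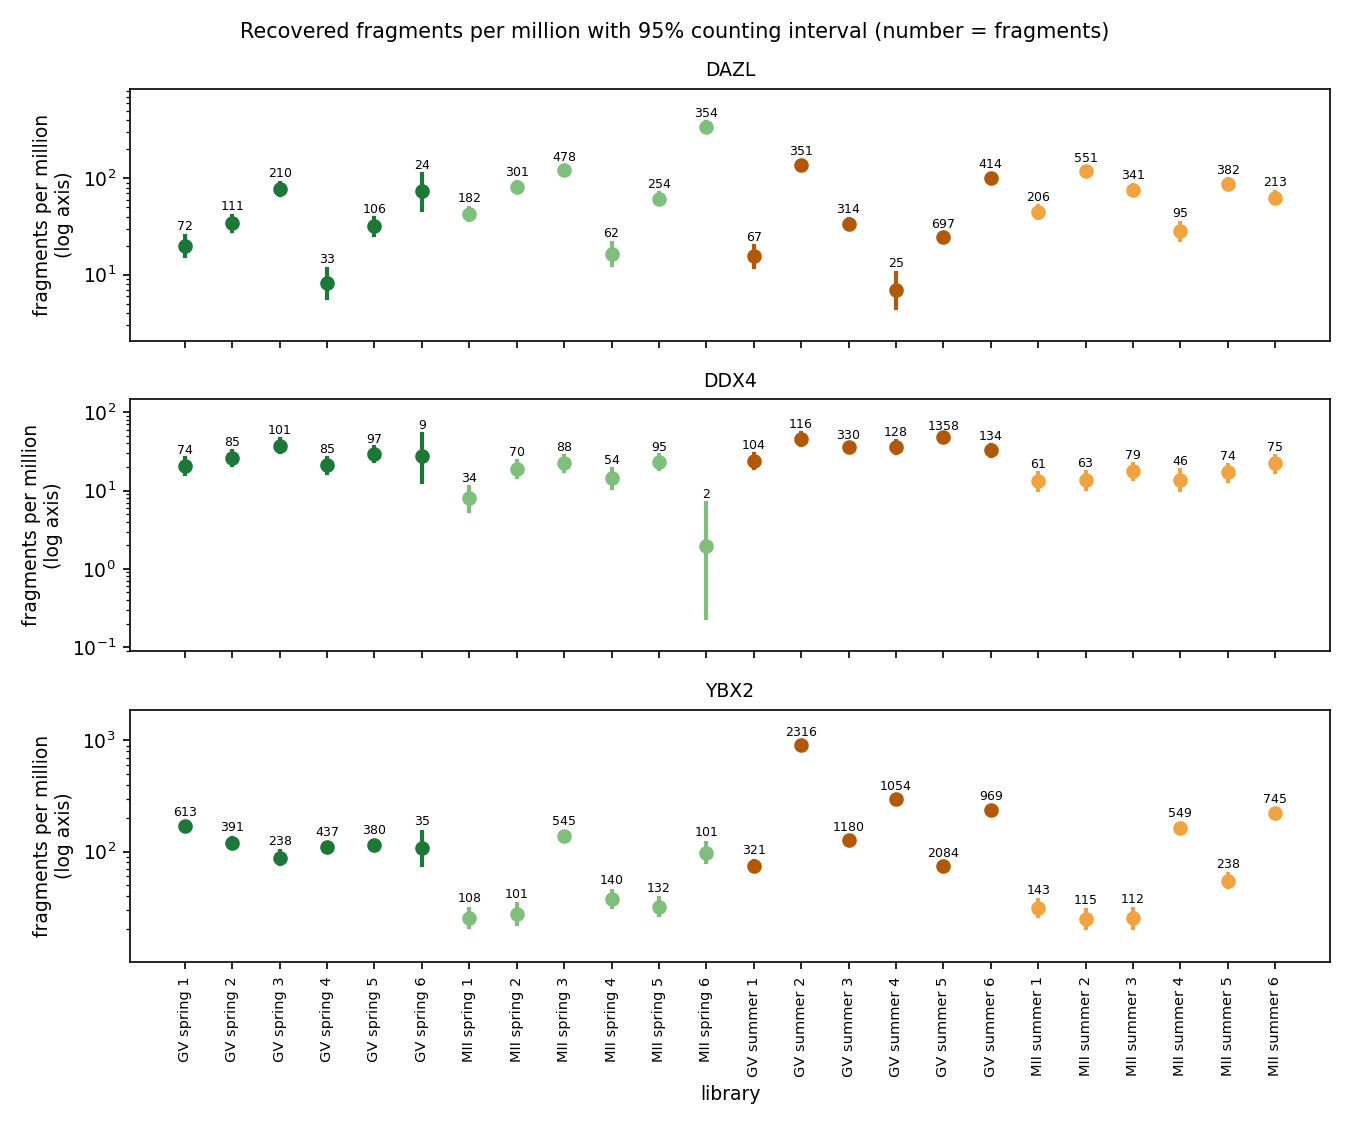
Recovered fragments as CPM, scaled to equal totals in the listed genes (log axis), of each gene by library, with exact 95% Poisson intervals and the number of fragments printed above each point. The intervals are wide where few fragments were read, such as the 2 DDX4 fragments of spring MII replicate 6.

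The change from GV to MII compares the RNA of these regulators before and after maturation. Every library was scaled to the same total, so a value is relative to the rest of its library and not an amount per oocyte. The libraries were made from captured mRNA, and RNA amount and poly(A) tail length cannot be told apart in them. With limma on log2(FPKM + 1), a gene counted as called when its p before adjustment was under 0.05 and its FPKM + 1 differed by more than 2-fold. This is a log2 difference over 1 in size. For genes near or below 1 FPKM, DAZL among them, it asks for more than a 2-fold change of FPKM. In spring, none of the 3 genes was called, against 11.8% of all genes tested (3.57% higher and 8.25% lower in MII oocytes). No member had an unadjusted p under 0.05, against 38.8% of all genes, and none had a Benjamini-Hochberg adjusted p under 0.05, against 24.2%. The p-values measure the spread between these libraries.

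DAZL was 2.82 ± 3.58 FPKM in spring MII and 0.813 ± 0.656 FPKM in spring GV oocytes (SD, n = 6 each). The difference was 0.77 on the log2(FPKM + 1) scale with an SE of 0.43, and its 95% interval ran from -0.16 to 1.70 (limma, adjusted p = 0.203). An exact two-sided permutation test gave p = 0.117, and an MII library exceeded a GV library in 27 of 36 pairs. With the replicate number as a block, the adjusted p was 0.0403 (limma) and DAZL was not called. Whether the numbers mark pairs is not known. The largest value, from spring MII replicate 6, carried part of this difference, which was 0.39 when that library was left out and 0.53 without the libraries under 70% mapped.

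YBX2 was 5.38 ± 4.52 FPKM in spring MII and 8.25 ± 1.46 FPKM in spring GV oocytes (SD, n = 6 each). In FPKM, all 4 lower MII libraries lay below every GV library and replicates 3 and 6 above every GV library. As CPM of the recovered fragments, replicates 3 and 6 stood at 138.7 and 98.2, within the GV range of 88.5 to 169.6. The difference on the log2(FPKM + 1) scale was -0.80 with an SE of 0.38 and a 95% interval from -1.62 to 0.01 (limma, adjusted p = 0.135). The exact two-sided permutation test gave p = 0.0693. Leaving out replicate 3 or replicate 6 of the MII oocytes brought the value to -1.05 and -1.04, and YBX2 was then called lower (adjusted p = 0.0453 and 0.0451, limma). Spring MII replicate 6 is the library with low mapping.

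DDX4 was 0.123 ± 0.0639 FPKM in spring MII and 0.188 ± 0.0533 FPKM in spring GV oocytes (SD, n = 6 each). The difference was -0.08 with an SE of 0.05 (limma, adjusted p = 0.225), and the exact two-sided permutation test gave p = 0.106. An MII library exceeded a GV library in 11 of 36 pairs. At this level the pseudocount limits what the scale can show, since a complete loss from the GV mean would be a fall of only 0.25 on it, and DDX4 could not reach the fold threshold in the lower direction.

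In summer oocytes none of the 3 genes was called either, against 11.5% of all genes tested (2.2% higher and 9.26% lower in MII oocytes). DDX4 had a p under 0.05, unadjusted and adjusted, as had 42.1% and 30.7% of all genes. DDX4 was 0.140 ± 0.0385 FPKM in MII and 0.270 ± 0.102 FPKM in GV oocytes (SD, n = 6 each). Of the 6 MII libraries, 5 lay below every GV library, and an MII library exceeded a GV library in 1 of 36 pairs. The exception was summer MII replicate 6 at 0.215 FPKM, above summer GV replicate 1 at 0.155 FPKM. The difference was -0.15 with an SE of 0.05 and a 95% interval from -0.27 to -0.04 (limma, adjusted p = 0.0388). The exact two-sided permutation test gave p = 0.00433, where 0.00216 is the smallest that 6 against 6 libraries allow. The largest fall the scale allows from the summer GV mean was 0.34.

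YBX2 was 8.09 ± 8.61 FPKM in summer MII and 25.2 ± 34.7 FPKM in summer GV oocytes (SD, n = 6 each). The difference was -1.27 with an SE of 0.74 and a 95% interval from -2.87 to 0.33 (limma, adjusted p = 0.209). An exact two-sided permutation test gave p = 0.143. It was -0.74 without summer GV replicate 2, the library at 94.8 FPKM and with low mapping, and -1.65 without summer MII replicate 6, where YBX2 was called lower at an adjusted p of 0.108 (limma).

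DAZL was 1.57 ± 0.769 FPKM in summer MII and 1.18 ± 1.40 FPKM in summer GV oocytes (SD, n = 6 each). The difference was 0.39 with an SE of 0.34 (limma, adjusted p = 0.413) and the exact two-sided permutation test gave p = 0.310. It was 0.66 without summer GV replicate 2.

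Because the recovered fragments are counts, the same comparisons were also fitted with voom in limma, a choice made after the values had been seen. This scale has no large pseudocount and leaves DDX4 free to show its fold change. DDX4 in summer was then called lower in MII oocytes, at -1.202 on the log2 scale (SE 0.29, adjusted p = 0.00394), and the value was -0.80 with median-of-ratios scaling on top (adjusted p = 0.0307), which is under the fold threshold. In spring DDX4 had a difference of -0.99 (SE 0.46, adjusted p = 0.0919). YBX2 was called lower in MII oocytes of both seasons, at -1.37 in spring (adjusted p = 0.0119) and -1.599 in summer (adjusted p = 0.0635). DAZL was not called, with 1.23 in spring (adjusted p = 0.126) and 1.02 in summer (adjusted p = 0.169). With this fit, 31.4% of all genes were called lower and 10.3% higher in spring, and 34.4% lower and 6.02% higher in summer, so a call in the lower direction was common. The median of all genes was -0.49 in spring and -0.48 in summer, and all 3 genes kept their direction relative to it and to 0. With no pseudocount on the FPKM values, 22.7% of all genes were called lower and 14.4% higher in spring, and YBX2 was called lower at -1.01 (adjusted p = 0.112). In summer 29% were called lower and 8.71% higher by that fit, and none of the 3 genes was among them.

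**Figure D3:**
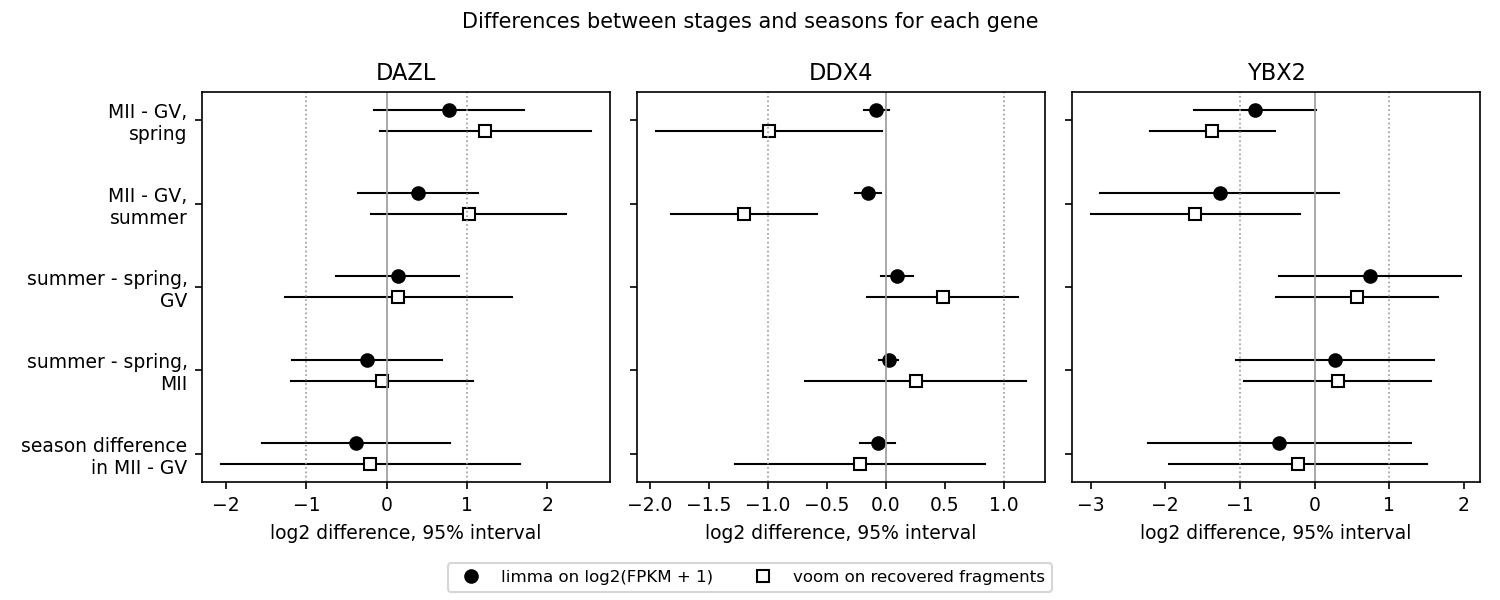
Differences between stages and seasons for each gene with 95% intervals, from limma on log2(FPKM + 1) (filled circles) and from voom on recovered fragments (open squares), where dotted lines mark a log2 difference of 1 in size. DDX4 in summer MII minus GV oocytes stands at -0.15 on the first scale and at -1.202 on the second.

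The season comparisons ask whether summer collection went with other levels of these RNAs at either stage. In GV oocytes none of the 3 genes was called between summer and spring, against 0.0315% of all genes, and no member had an unadjusted p under 0.05, against 1.55%. YBX2 averaged 25.2 ± 34.7 FPKM in summer GV against 8.25 ± 1.46 FPKM in spring GV libraries (SD, n = 6 each). The difference was 0.74 on the log2(FPKM + 1) scale, with a 95% interval from -0.48 to 1.96 (limma, adjusted p = 1, exact permutation p = 0.277). It was 0.21 without summer GV replicate 2. The spring libraries were within 1.58-fold of each other, whereas the highest summer library was 19.4-fold above the lowest. Of the summer libraries, 3 lay above every spring library and 2 below every spring library.

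DDX4 had a season difference of 0.09 in GV oocytes, with an interval from -0.04 to 0.23 (exact permutation p = 0.102), and a summer library exceeded a spring library in 27 of 36 pairs. DAZL had a difference of 0.14 with an interval from -0.63 to 0.90 (exact permutation p = 0.745), and it was -0.13 without summer GV replicate 2. In FPKM, summer GV replicate 2 was the highest library of its group for all 3 genes. As CPM of the recovered fragments, DDX4 was highest in summer GV replicate 5, at 48.1 against 45.6 in replicate 2. In summer GV replicate 2 the 10 highest genes held 18.0% of the total, the lowest share of the 24 libraries.

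In MII oocytes none of the 3 genes was called between seasons, against 0.042% of all genes, and none had an unadjusted p under 0.05, against 2.11%. The differences between summer and spring were -0.25 for DAZL with an interval from -1.18 to 0.69, 0.02 for DDX4 with an interval from -0.06 to 0.11 and 0.27 for YBX2 with an interval from -1.06 to 1.598 (limma, adjusted p = 1 for each). The exact permutation test gave p = 0.684, 0.569 and 0.636 for these genes. DAZL changed sign to 0.13 without spring MII replicate 6, and YBX2 to -0.10 without summer MII replicate 6. The interval of YBX2 reaches beyond a 2-fold change of FPKM + 1 in both directions and that of DAZL in the lower direction, so these values do not exclude differences of that size.

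Whether the stage change itself differed between seasons was tested in 1 fit over the 24 libraries. It was -0.38 for DAZL with an interval from -1.56 to 0.79, -0.07 for DDX4 with an interval from -0.22 to 0.08 and -0.47 for YBX2 with an interval from -2.24 to 1.29 (limma, adjusted p = 0.9998 for each). None of the 3 genes was called, against 0.21% of all genes, and none had an unadjusted p under 0.05, against 1.8%. With voom the value for DDX4 was -0.22 with an interval from -1.28 to 0.84, so its summer and spring changes were not shown to differ. With voom none of the 3 genes was called between seasons in GV or MII oocytes or for the stage change, against 1.55%, 1.67% and 2.02% of all genes.

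The libraries of each group carry the numbers 1 to 6 in their labels, and the sources used here do not say which cow a number marks or whether it is the same cow in each group. DAZL was lowest in the library numbered 4 in all 4 groups, at 0.166 FPKM in spring GV, 0.366 in spring MII, 0.143 in summer GV and 0.711 in summer MII oocytes. The next lowest library was number 1 in every group. Over all genes tested, 1.3% had the same number lowest in all 4 groups. In spring, the order of the 6 numbers by DAZL was the same in GV and MII oocytes, as for 0.388% of all genes, and each MII library was higher than the GV library of its number. In summer the order was not the same, a match found for 0.346% of all genes, and the MII library was higher for 4 of 6 numbers. Numbers 3 and 6 changed places in the spring GV order when DAZL was given as CPM of the recovered fragments, at 78.1 and 73.9. Neither DDX4 nor YBX2 had the same number lowest in all 4 groups, or the same order in GV and MII oocytes. DDX4 was lowest in number 1 in spring GV, summer GV and summer MII oocytes, and number 1 was next to lowest in spring MII oocytes. DDX4 was lower in the MII library for 6 of 6 numbers in summer and for 5 of 6 in spring. The shares of all genes with such counts by number, or with the same next lowest number, are not given here.

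YBX2 in MII oocytes moved with the share of a library that its most abundant genes took. Among the 12 MII libraries, the 4 with the lowest share of the total in their 10 highest genes were the 4 with the highest YBX2, at shares of 24.1% to 34.5% and YBX2 of 10.9 to 22.1 FPKM. The other 8 libraries had shares of 38.0% to 43.2% and YBX2 of 1.83 to 4.37 FPKM. Over these 12 libraries Pearson's r of log2(FPKM + 1) with the share was -0.858 and Spearman's rho was -0.769, and r was -0.851 without the 2 libraries farthest from the median share. In the 12 GV libraries r was -0.631 and rho was -0.280, and r was -0.104 without the 2 farthest libraries. For DAZL the r with the share was -0.728 in GV and -0.556 in MII oocytes, and -0.036 and 0.035 without the 2 farthest libraries. For DDX4 it was -0.695 in GV and 0.088 in MII oocytes, and -0.486 and -0.271 without them. In GV oocytes the r over all 12 libraries was thus no smaller in size for DAZL and DDX4 than for YBX2. Both measures come from the same library and total, and these values are a description. YBX2 in MII oocytes also went with the relative depth of a library (rho -0.706) and with its median FPKM (rho 0.706). In GV oocytes these rho values of YBX2 were -0.448 and 0.587. The part of these library properties in the differences of the 3 genes was not tested.

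**Figure D4:**
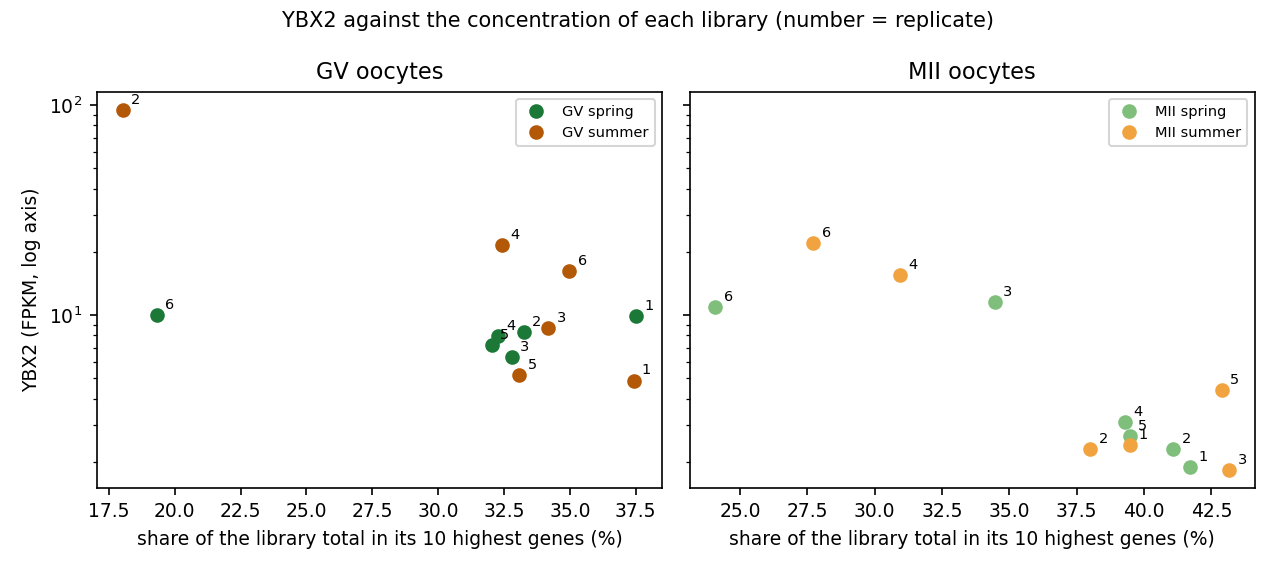
YBX2 (FPKM, log axis) against the share of the library total held by the 10 highest genes, for the 12 GV libraries and the 12 MII libraries, where numbers are replicates. The 4 MII libraries with shares of 24.1% to 34.5% hold 10.9 to 22.1 FPKM of YBX2, above the other 8.

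The genes most like each member over the 24 libraries were taken from those with a mean of at least 10 FPKM, by Pearson's r on log2(FPKM + 1). YBX2 was closest to CTSB, a lysosomal cathepsin (r = 0.915), CAMLG (0.889) and STAR, the cholesterol transporter of steroidogenesis (0.877), which is also on the cumulus marker list. It ran most opposite to BTF3 (-0.916), CALM (-0.891) and SSR3 (-0.879). CTSB also led with r = 0.949 once the mean of each group had been subtracted, followed by UHRF1 (0.940) and PDRG1 (0.934). DAZL was closest to TBCC (0.780), HNRNPF (0.768) and the chaperone HSP90AB1 (0.748), and most opposite to TPPP3 (-0.807), PSENEN (-0.795) and MRPL52 (-0.762). After group means were subtracted, TBCC (0.758), HNRNPF (0.744) and HSP90AA1 (0.729) led for DAZL. DDX4 was closest to C23H6orf25 (0.786), POLR2L (0.758) and RPL7L1 (0.736), and most opposite to RPA3 (-0.690), UBE2T (-0.688) and TRMT112 (-0.677), with USP1 (0.682), SGO1 (0.637) and ATXN7L3B (0.636) leading after group means. The likeness was taken over 969 genes for DAZL and DDX4 and 968 for YBX2. Among the 3 genes themselves, r was 0.613 for DDX4 with YBX2, 0.196 for DAZL with YBX2 and -0.060 for DAZL with DDX4. All of these share libraries, depth and scaling, and no p is given for them.

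Relatives of the members were read where they had a row. YBX1, the somatic Y-box protein, was 6.84 ± 3.47 FPKM in spring MII and 7.13 ± 9.72 FPKM in spring GV oocytes (SD, n = 6 each), with a difference of 0.39 (limma, adjusted p = 0.562), and of 0.22 in summer (adjusted p = 0.772). YBX3 had differences of -0.10 in spring (adjusted p = 0.569) and -0.30 in summer (adjusted p = 0.0764). BOLL, the relative of DAZL, had 0.09 (adjusted p = 0.229) and 0.01 (adjusted p = 0.871), and CPEB3 0.05 (adjusted p = 0.690) and 0.09 (adjusted p = 0.517). DDX3X, a DEAD-box helicase expressed widely, had 0.75 (adjusted p = 0.317) and 0.57 (adjusted p = 0.289). None of these 5 relatives was called on the log2(FPKM + 1) scale in either season. With voom, YBX3 was called lower in spring at -1.23 (adjusted p = 0.0566) and in summer at -1.94 (adjusted p = 0.00721), and DDX3X was called higher in spring at 1.21 (adjusted p = 0.0442) but not in summer at 0.47.

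The machinery around these proteins was described with lists of genes that act on stored mRNA and of messages that are stored. Counts are given on the log2(FPKM + 1) scale first, on which genes at low levels such as DDX4 can hardly reach the fold threshold. That scale called 3.57% of all genes higher and 8.25% lower in spring, and 2.2% and 9.26% in summer. Counts with voom follow, which called 10.3% higher and 31.4% lower in spring (41.7% in all), and 6.02% and 34.4% in summer (40.4% in all). The counts of each list below stand beside these shares. Of the 20 polyadenylation genes tested, 1 was called higher and none lower in spring MII oocytes, and none in summer, on the first scale. With voom, 2 were called higher and 2 lower in spring, and 1 higher and 4 lower in summer. The median difference of that list on the log2(FPKM + 1) scale was 0.18 in spring and 0.08 in summer, where the median of all genes was -0.03 and -0.02. SYMPK, a scaffold of the cleavage and polyadenylation machinery, had the lowest voom values, at -2.67 in spring (adjusted p = 0.00318) and -2.93 in summer (adjusted p = 0.000395), on a median of 4 and 5 fragments in spring and summer MII libraries. PAPOLG, a nuclear poly(A) polymerase, was the gene called on the first scale. It stood at 15.2, 19.9 and 27.5 FPKM (lowest, median, highest) in spring MII and 3.51, 4.88 and 11.2 FPKM in spring GV oocytes, without overlap. The share of all genes without overlap is not given here, while 38.8% had an unadjusted p under 0.05 in spring (limma). The PAPOLG difference was 1.70 with an SE of 0.25 (limma, adjusted p = 0.000629), and in summer it was 0.86 (adjusted p = 0.133). PAPD4, the cytoplasmic poly(A) polymerase of the CPEB1 pathway, was not called on that scale, with a difference of 0.43 (limma, adjusted p = 0.0212) in spring and 0.26 (adjusted p = 0.112) in summer. Its spring means were 0.816 FPKM in MII and 0.352 FPKM in GV oocytes, a level at which the added 1 keeps the difference small.

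Of 17 storage and repression genes tested, 1 was called higher and 1 lower in spring, and 1 lower in summer, on the log2(FPKM + 1) scale, with a median difference of 0.38 in spring and 0.22 in summer. With voom, 4 were called higher (FMR1, IGF2BP2, IGF2BP3 and ZAR1L) and 3 lower (CAPRIN1, YBX3 and ZAR1) in spring, and none higher and the same 3 lower in summer. ZAR1, a zinc finger protein that binds maternal mRNA, had a lowest, median and highest level of 17.5, 29.9 and 37.5 FPKM in spring MII and 61.4, 125 and 304 FPKM in spring GV oocytes. It was lower by 2.32 on the log2 scale in spring MII oocytes (SE 0.39, limma, adjusted p = 0.00129) and had a difference of -2.94 in summer MII oocytes (SE 0.40, adjusted p = 0.000194). Its MII and GV libraries did not overlap in either season, a pattern whose share over all genes is not given here. ZAR1L, its paralog, was 60.8 ± 18.1 FPKM in spring MII and 27.1 ± 12.97 FPKM in spring GV oocytes (SD, n = 6 each) and was called higher at 1.21 (adjusted p = 0.0151), while the summer difference was 0.49 (adjusted p = 0.295). How the counting treated reads that match both paralogs is not given in the sources used here.

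Of 14 germ granule and piRNA genes tested, 1 was called lower in each season and none higher on the log2(FPKM + 1) scale, with median differences of 0.04 and 0.01. With voom, 1 was called higher and 5 lower in spring, and 1 higher and 6 lower in summer, and the medians were 0.33 and -0.20, so the sign of the summer median depended on the scale. ASZ1 was the gene called higher, at 1.22 and 1.08, and GPAT2, GTSF1, MOV10, PIWIL3 and PLD6 were called lower in both seasons and TDRKH in summer. GTSF1, a piRNA pathway zinc finger protein, was 13.8 ± 8.07 FPKM in spring MII and 28.2 ± 7.88 FPKM in spring GV oocytes (SD, n = 6 each), a difference of -1.11 (limma, adjusted p = 0.0460). In summer its difference was -1.40 (adjusted p = 0.0108). Of 13 genes of maternal mRNA decay tested, 1 was called higher in each season and none lower on the log2(FPKM + 1) scale, with median differences of 0.23 and 0.20. With voom, 5 were called higher and 1 lower in spring, and 4 higher and 1 lower in summer. CNOT6, CNOT6L, CNOT7 and DCP1A were the genes called higher in both seasons and ZCCHC6 in spring. CNOT1, the scaffold of the CCR4-NOT complex, was the gene called lower, at -1.47 in spring (adjusted p = 0.00351) and -2.32 in summer (adjusted p = 0.000225). CNOT7, a deadenylase of the CCR4-NOT complex, was higher by 1.42 in spring (adjusted p = 0.0262) and by 1.30 in summer MII oocytes (adjusted p = 0.0246).

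Among messages that CPEB1 or DAZL are known to bind in other species, 8 were tested and 1 was called higher in each season on the log2(FPKM + 1) scale, with median differences of 0.55 and 0.46. With voom, 3 were called higher in spring (TPX2, KIF11 and BUB1B) and 1 in summer (CCNB1), and none lower. TPX2, a spindle assembly factor, was 6.19 ± 1.41 FPKM in spring MII and 1.64 ± 0.551 FPKM in spring GV oocytes (SD, n = 6 each) and was higher by 1.44 (limma, adjusted p = 0.000473). Its summer difference of 0.92 was under the fold threshold for FPKM + 1 (limma, adjusted p = 0.00716), at means of 5.92 FPKM in MII and 2.57 FPKM in GV oocytes. CCNB1, the cyclin of maturation promoting factor, was higher by 1.31 in summer MII oocytes (adjusted p = 0.00366), and its spring difference of 0.99 was just under the fold threshold (adjusted p = 0.00814). MII and GV libraries did not overlap for either gene in either season, and the share of all genes without overlap is not given here. As for the members, RNA amount and poly(A) tail length cannot be told apart in these values. On the log2(FPKM + 1) scale none of the genes of these 5 lists was called between seasons, at GV or at MII, or for a stage change that differed between seasons. In that order, 0.0315%, 0.042% and 0.21% of all genes were called. With voom, IGF2BP2 was called lower in summer than in spring MII oocytes at -1.31, and the stage change was called different between seasons for IGF2BP2 at -1.48 and ZCCHC6 at -1.43, with no adjusted p under 0.99. These voom comparisons called 1.67% and 2.02% of all genes.

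**Figure D5:**
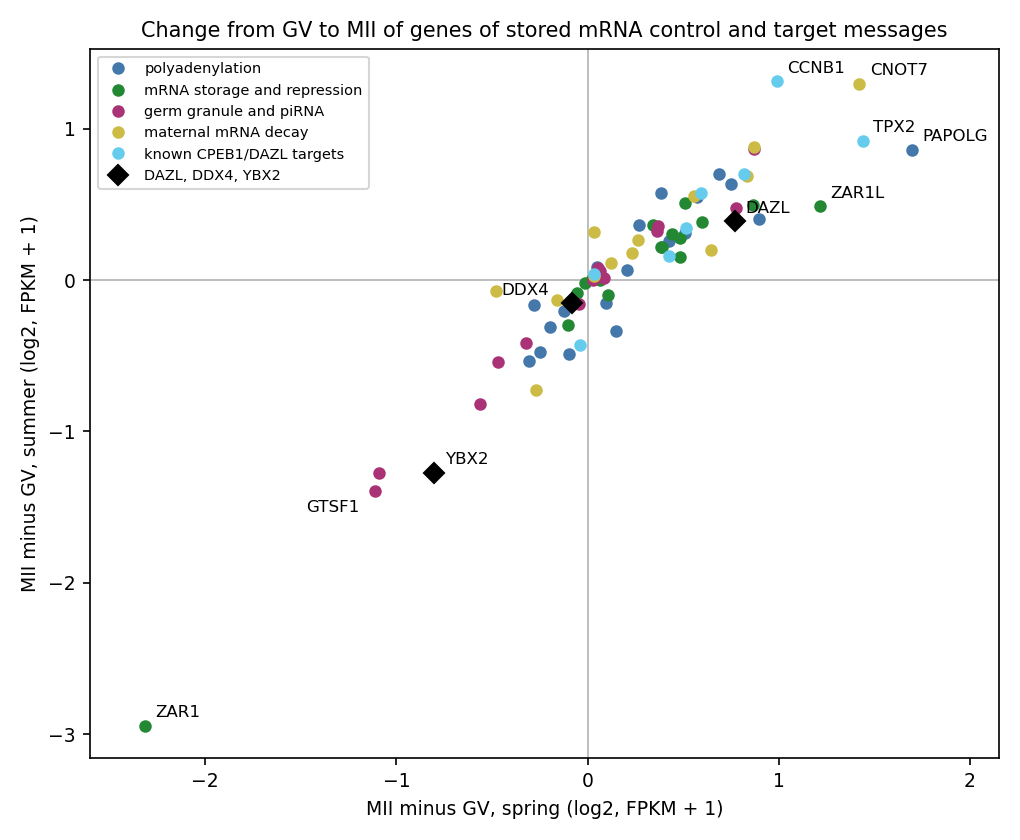
Change from GV to MII in spring (horizontal axis) and in summer (vertical axis), as log2 differences of FPKM + 1, for 4 lists of genes that act on stored mRNA and 1 list of target messages (points) and for DAZL, DDX4 and YBX2 (diamonds). ZAR1 stands lowest at -2.32 and -2.94, and YBX2 at -0.80 and -1.27.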

How the data were processed

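Smart-seq2 libraries had been sequenced as paired 100 bp reads, trimmed, aligned to UMD3.1.1 with STAR 2.5.3a and quantified by the authors. The authors deposited FPKM values, described as per kilobase of exon, for 11306 genes in 24 libraries. Every library sums to the same total of about 86768 and no value is under 0.01, steps taken from the values. After 0.01 was subtracted, the steps between values were fragments over genomic span: in 98.9% of 833 genes with a solved step, step times span was within 0.5% of the median. Of 198966 values under 500 fragments, 98.4% were whole within 0.1, where 20% would be by chance, so fragments were recovered. All 24 value columns matched a sample title.

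log2(FPKM + 1) was tested with limma 3.58.1 in R 4.3.3 (trended moderation) for the 9526 genes over 0.1 FPKM in at least 1 library. A call needed p under 0.05 before adjustment together with a difference of more than 2-fold in FPKM + 1, or in scaled fragments with voom. The limits of 0.05 and 2-fold are those of the study, whose tool (Partek Flow) was not used here. Adjusted p-values follow Benjamini and Hochberg over all genes tested. Single genes had a two-sided exact permutation test over 924 assignments. The 5 comparisons were MII against GV in each season, summer against spring at each stage and whether the stage change differed between seasons. The main fits between stages and between seasons on log2(FPKM + 1) were tested on simulated data. The fit of whether the stage change differed between seasons, voom and the other settings were not. Tables and intervals were made in Python 3.11.15 with numpy 2.4.6, pandas 2.3.3 and scipy 1.17.1.

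The genes, the lists and the rule for named genes were chosen with earlier results of these data known. Named were the 3 genes with their listed relatives, up to 3 called genes per list and direction in spring, any called between seasons, and the genes with the 3 highest and 3 lowest correlations to each member among those with a mean of at least 10 FPKM. CCNB1 and ZP3 (called in summer), PAPD4, PLD6, single cumulus markers and the further genes named with voom fall outside that rule and were chosen after their values had been seen. Other settings tried were no filter, a pseudocount of 0.1, only genes averaging at least 1 FPKM, median-of-ratios scaling, quantile normalization, all groups in one fit, the replicate number as a block, only libraries with at least 70% mapped, adjusted p, and leaving out each library. Fits without a pseudocount and with voom were added after the values had been seen.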

Additional observations from a re-analysis of the deposited data

Results flagged for a closer look

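In 3 of the 12 combinations of gene and group, 1 library stood apart by more than Dixon's 95% critical ratio for 6 libraries. The rate of about 1 in 20 groups by chance holds for normally distributed values. The ratio was taken on FPKM and not on a log scale, and no share of flags over all genes is given. The coefficient of variation was 127% for DAZL in spring MII and 138% for YBX2 in summer GV oocytes. DAZL in spring MII replicate 6 was 9.95 FPKM, with a gap to the next library of 0.763 of the range of the group. YBX2 in summer GV replicate 2 was 94.8 FPKM, with a gap of 0.816 of the range. Both of these libraries had under 70% of reads mapped. DDX4 in summer MII replicate 6 was 0.215 FPKM, with a gap of 0.719 of the range, on 75 fragments, and its library was not among those with low mapping. As CPM of the recovered fragments this value was 22.2, the next in its group 17.7 and the lowest 13.2. The ratio was not taken on that scale.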

How the results depend on the processing

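Depth limited DDX4 most, which rested on 2 and 9 fragments in the poorest libraries, and the length scale of the deposited values limits any comparison between genes. Over the alternatives and with each library left out, DAZL stayed higher and DDX4 and YBX2 lower in MII oocytes of both seasons. Requiring genes to average at least 1 FPKM left DDX4 untested, the fit over all 4 groups was replaced by moderation without a trend where it was already the fit used, and CPEB1 was not run. Calls among the 3 genes changed from 0 as follows, and the cause was not tested. In spring, YBX2 was called at -1.01 with no pseudocount, at -1.17 with median-of-ratios scaling added, at -1.23 with at least 70% mapped added, at -1.37 with voom and at -1.22 with voom and median-of-ratios scaling, which also called DAZL at 1.37, so that 1 gene was called by the first 4 and 2 by the last. In the same order, these fits called 37.1%, 36.9%, 43%, 41.7% and 42.6% of all genes in spring. In summer, YBX2 was called at -1.27 with all 4 groups in one fit, at -1.36 with no pseudocount and median-of-ratios scaling and at -1.599 with voom, which also called DDX4 at -1.202, giving 1, 1 and 2 called genes. DAZL was called in summer at 1.64 with no pseudocount and at least 70% mapped, and at 1.38 with voom and median-of-ratios scaling, 1 gene in each. The fit over all 4 groups called 11.5% of all genes in summer, and these other fits, in the order given, 39.6%, 40.4%, 42.1% and 43.3%.

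Values with no call changed sign between seasons. In GV oocytes, DAZL was -0.035 with no pseudocount and median-of-ratios scaling and -0.064 with no pseudocount and at least 70% mapped. In MII oocytes with at least 70% mapped, DAZL was 0.13 (0.32 with no pseudocount) and DDX4 -0.0015, and DAZL was 0.020 with voom and median-of-ratios scaling. The season difference in the change from GV to MII with at least 70% mapped was 0.12 for DAZL and 0.24 for YBX2, or 0.38 and 0.31 with no pseudocount, and it was 0.19 for DDX4 with no pseudocount and median-of-ratios scaling.

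With libraries left out in turn, YBX2 ranged from -1.05 to -0.63 in spring and from -1.65 to -0.74 in summer, and 0 to 1 of the 3 genes were called in each. Between seasons, DAZL ranged from -0.13 to 0.28 in GV and from -0.47 to 0.13 in MII oocytes. DDX4 ranged from -0.0015 to 0.039 in MII oocytes, YBX2 from -0.10 to 0.52 in MII oocytes and from -0.84 to 0.057 for the season difference in the change from GV to MII. Between seasons YBX2 in MII oocytes was -0.0055 without summer MII replicate 4.

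The numbers were not taken as pairs, since the sources used here do not say whether a number marks the same cow. Correlations of the deviations of samples with the same number ran from -0.44 to 0.76, a range that does not settle whether they are pairs. With the replicate block, DAZL in spring had a value of 0.77 and an adjusted p of 0.0403, and 0 of the 3 genes were called in any comparison.

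The median of all genes between stages moved from -0.03 to -0.18 in spring and from -0.02 to -0.30 in summer with no pseudocount, to -0.49 and -0.48 with voom, and to -0.36 in spring with voom and median-of-ratios scaling. Of the calls over all genes, 30.2% were higher in MII oocytes in spring and 19.2% in summer, and these shares were 46.2% and 42.3% with quantile normalization and 38.2% in summer with voom and median-of-ratios scaling. Between seasons the median of all genes moved to 0.12 in GV oocytes with no pseudocount and to -0.15 in MII oocytes with voom, and for the season difference in the stage change to -0.21 and -0.12 with these fits. The season calls were few, with 33.3% of 3 calls higher in GV oocytes, and this share ran from 0 with median-of-ratios scaling to 58.6% with no pseudocount.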

Other observations

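Other genes of the lists gave values that the comparisons above did not describe. PLD6, a mitochondrial phospholipase of piRNA biogenesis, had differences close to those of GTSF1, at -1.09 in spring (95% interval -2.64 to 0.47) and -1.28 in summer (-2.59 to 0.04), and was not called on the log2(FPKM + 1) scale in either season. With voom it was called lower in both, at -1.87 (adjusted p = 0.0969) and -2.51 (adjusted p = 0.0927). The markers below were counted on the log2(FPKM + 1) scale unless voom is named. Of the 8 oocyte markers tested, 2 were called higher and 1 lower in spring, and 2 lower in summer, on that scale. Of all genes, 3.57% were called higher and 8.25% lower in spring, and 2.2% and 9.26% in summer. ZP2 and BMP15 were called higher in spring MII oocytes by 1.65 and 1.35. The change of ZP2 differed between seasons by -1.21 (limma, adjusted p = 0.9998), the 1 call among the 8 markers for that difference, against 0.21% of all genes. NLRP5 was called lower in MII oocytes of both seasons, at a median of 2.12 against 5.86 FPKM in spring and a mean of 2.66 ± 1.93 against 11.1 ± 7.14 FPKM in summer (SD, n = 6 each), and ZP3 was called lower in summer at -1.50. Of the 15 cumulus markers tested, 3 had higher and 12 lower values in spring MII than GV oocytes, with a median difference of -0.24, and 7 and 8 in summer, with a median of -0.02. HAS2, a gene of cumulus expansion, was the 1 marker called on that scale, higher in MII oocytes by 1.06 in spring and by 1.04 in summer. With voom, 1 was called higher and 2 lower in spring, and 3 higher and 2 lower in summer. Of all genes, voom called 10.3% higher and 31.4% lower in spring, and 6.02% and 34.4% in summer.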
